A study of Mus musculus with 8 samples.

Results

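The genes described here encode the core of the transforming growth factor beta (TGF-beta) pathway: the ligands Tgfb1, Tgfb2 and Tgfb3, the latency protein Ltbp1, the receptors Tgfbr1, Tgfbr2 and Tgfbr3, and the Smads Smad2, Smad3 and Smad4. They were chosen by symbol from the deposited tables, as 10 of 55414 genes, by a rule that uses no measured value, though with earlier results of these data known. Each symbol matched 1 row, and all 10 passed the filter on low counts, which left 14772 genes in all.

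The series holds RNA-seq of the mouse cortical collecting duct line mpkCCD, in 8 libraries. The 4 control libraries came from cells given dDAVP alone, an agonist of the vasopressin V2 receptor. The other 4 came from cells given dDAVP and the V2 receptor antagonist tolvaptan together, so that every library carries dDAVP and no group went without it. The labels give neither dose nor duration, though the study's text states them. By that text, the cells were grown with dDAVP, which was kept on when tolvaptan or its vehicle was added. By the study's methods the cells are a single subclone from SV-PK/Tag transgenic mice, in which a viral T antigen immortalizes the cells. They were grown on permeable supports with dexamethasone and serum. By the same methods, serum and growth factors were withdrawn a day before an experiment, while dexamethasone was kept. Both groups thus share 1 clone, 1 oncogene and 1 steroid. Nothing in the labels ties the 4 libraries of either group to cultures of their own, and a p-value given here is therefore measured against a spread that may be only technical.

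TGF-beta ligands are secreted in a latent form, held by their own propeptide and tied to the matrix by latent TGF-beta binding proteins, and must be released, for instance by integrins, before they can signal. The free ligand binds the type II receptor, which recruits and phosphorylates the type I receptor, while the betaglycan co-receptor presents ligand to the pair. The active receptor phosphorylates the receptor-regulated Smads, which join a common partner Smad and enter the nucleus to change transcription. In kidney epithelium the pathway is best known for growth arrest, loss of epithelial character and matrix production in fibrosis.

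The V2 receptor signals through cyclic AMP, and promoters of cyclic AMP responsive genes often carry the palindrome TGACGTCA. The RefSeq table of promoters (build GRCm38.p6) held 6 of the 10 genes, with 8 start sites: 2 each for Ltbp1 and Tgfbr1 and 1 each for Tgfb1, Tgfb2, Tgfbr2 and Smad3. The 250 bases before the start are printed for the 3 genes of lowest level, and for Ltbp1 at both starts, from which annotated transcripts of different length begin. These are Ltbp1 at its upstream start (chr17:75005279-75005528, plus strand) and its downstream start (chr17:75178531-75178780, plus strand), Tgfb1 (chr7:25686752-25687001, plus strand) and Tgfb2 (chr1:186705990-186706239, minus strand). Capitals mark TGACGTCA in Ltbp1, the GC box GGGCGG on either strand in Tgfb1, and in Tgfb2 the shorter cyclic AMP letters TGACG, there on the opposite strand, followed by the TATA box TATAAA.
Ltbp1, upstream start: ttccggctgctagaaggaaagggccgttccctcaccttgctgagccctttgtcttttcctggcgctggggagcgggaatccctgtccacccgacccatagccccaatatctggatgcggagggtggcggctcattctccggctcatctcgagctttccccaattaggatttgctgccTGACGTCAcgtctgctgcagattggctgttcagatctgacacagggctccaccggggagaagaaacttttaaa
Ltbp1, downstream start: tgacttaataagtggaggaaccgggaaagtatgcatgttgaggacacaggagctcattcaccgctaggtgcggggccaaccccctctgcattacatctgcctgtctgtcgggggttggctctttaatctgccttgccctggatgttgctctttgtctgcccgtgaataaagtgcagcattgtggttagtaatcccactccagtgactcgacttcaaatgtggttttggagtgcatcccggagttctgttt
Tgfb1: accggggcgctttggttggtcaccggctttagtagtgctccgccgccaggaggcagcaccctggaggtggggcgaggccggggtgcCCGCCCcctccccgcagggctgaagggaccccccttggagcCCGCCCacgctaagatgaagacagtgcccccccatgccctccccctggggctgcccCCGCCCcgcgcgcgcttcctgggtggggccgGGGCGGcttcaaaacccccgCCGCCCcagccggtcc
Tgfb2: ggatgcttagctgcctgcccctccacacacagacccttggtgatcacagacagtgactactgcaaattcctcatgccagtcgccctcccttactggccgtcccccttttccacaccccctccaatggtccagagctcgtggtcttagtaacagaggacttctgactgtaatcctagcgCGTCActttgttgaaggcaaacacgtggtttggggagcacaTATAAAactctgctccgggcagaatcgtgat

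The upstream Ltbp1 promoter was the 1 of the 8 starts with TGACGTCA, at 73 to 66 bases before the start, and 1.546% of 32851 promoters of this length held it on either strand. The shorter TGACG stood before 2 of the 8 starts, Ltbp1 upstream, where it lies inside the palindrome, and Tgfb2, against 17.765% of all promoters. Tgfb2 alone among the 8 held TATAAA (12.368% of all promoters), at 31 to 26 bases before the start. The Tgfb1 promoter, 75.2% G and C, held 5 copies of GGGCGG between 164 and 11 bases before the start. GC boxes also stood in Smad3 and in 1 of the Tgfbr1 promoters, 3 of 8 starts in all, against 32.742% of promoters. The Smad box CAGAC was found before 5 of the 8 starts (42.194% of all promoters) and the AP-1 letters TGACTCA before none (4.463%). These matches describe letters in a window and are not evidence of binding.

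Transcript levels are given in TPM (length-scaled transcript units with the same total in every library), which are corrected for transcript length and can be set side by side between genes. The 10 genes spanned about 2 orders of magnitude, as the plot of TPM by library shows. Smad4 led with a mean of 124.9 TPM over the 8 libraries, followed by Smad2 (74.5 TPM), Tgfbr3 (43.8), Tgfbr2 (42.7), Tgfb3 (28.9), Tgfbr1 (24.9), Smad3 (24.4), Tgfb1 (6.77), Ltbp1 (2.16) and Tgfb2 (1.15). Smad4 was above Smad2, and Smad2 above the remaining 8 genes, in all 8 libraries with no overlap of ranges. The ranges of Tgfbr3 and Tgfbr2 overlapped, with Tgfbr3 the higher in 6 of 8 libraries. Tgfb3, Tgfbr1 and Smad3 also formed neighbours with overlapping ranges: Tgfb3 exceeded Tgfbr1 in 7 of 8 libraries, and Tgfbr1 exceeded Smad3 in 6 of 8. Ltbp1 was above Tgfb2 in all 8 libraries although their ranges over the libraries overlapped. Among the 14772 tested genes, Smad4 stood at the 86.7 percentile of mean TPM, Tgfb3 at 58.0, Tgfb1 at 34.3 and Tgfb2 at 16.6.

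**Figure D1:**
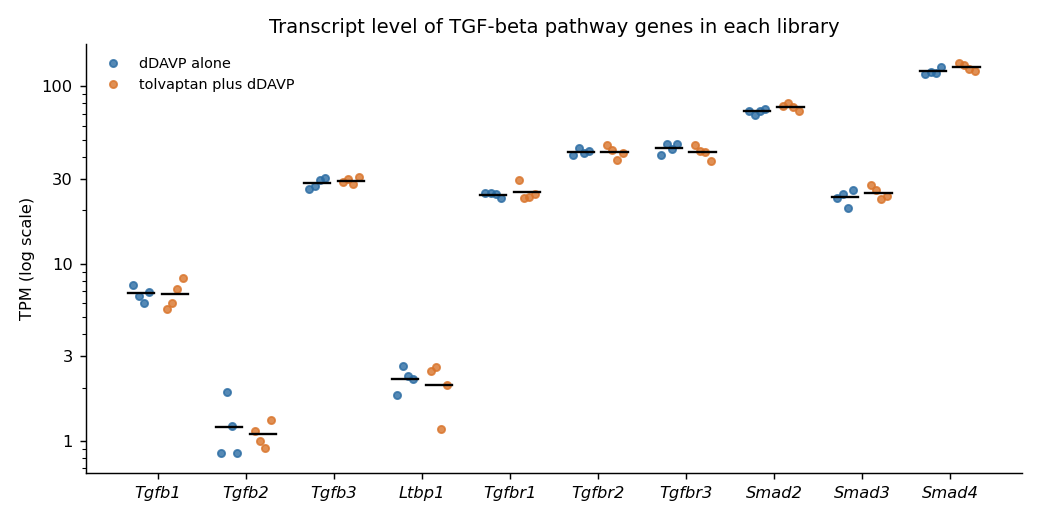
TPM of each of the 10 genes in each library, on a log axis, with dDAVP alone in blue and tolvaptan plus dDAVP in orange; points are libraries and lines are group means (n = 4). The blue and orange points overlap for every gene, and the levels run from about 1 TPM for Tgfb2 to 116.89 to 134.45 TPM for Smad4.

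The comparison asked whether blocking the V2 receptor in the presence of its agonist altered the transcripts of this pathway. Directions rest on the labels as given. Aqp2, the water channel gene that vasopressin is known to raise, had a log2 fold change of 0.05 (edgeR adjusted p = 0.857) and so gives no check of them. None of the 10 genes passed an adjusted p of 0.05 in edgeR's quasi-likelihood test, against 0.399% of all genes (59 of 14772), and none had an unadjusted p under 0.05, against 11.2% of all genes. DESeq2 and limma on log2(TPM + 1) likewise called none of the 10, while they called 2.28% and 0.149% of all genes. For all 10 the groups overlapped on both the normalized count and the TPM scale, whereas 7.76% of all genes did not overlap in log2 CPM (counts scaled to library size) and 6.53% did not in TPM. At the overall rate of 0.399%, a count of 0 among 10 genes sets them apart from no other genes. The intervals carry more: for the 7 genes with a mean above 20 TPM, the 95% confidence intervals all lay between 0.865-fold and 1.20-fold. For the 3 genes with a mean below 10 TPM (Tgfb1, Ltbp1 and Tgfb2) they reached from 0.674-fold to 1.45-fold. In bulk RNA, fewer cells expressing a gene and less RNA per cell cannot be told apart.

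**Figure D2:**
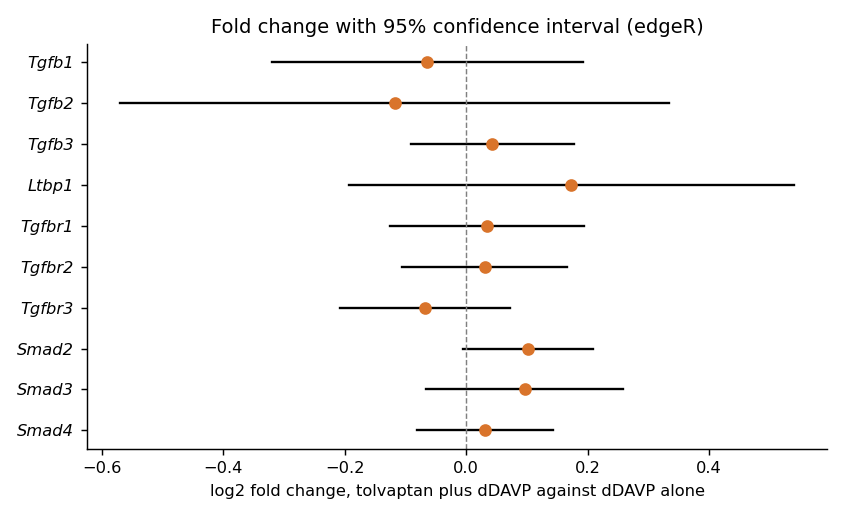
Log2 fold change of each gene, tolvaptan plus dDAVP against dDAVP alone, from edgeR; points are estimates and bars are 95% confidence intervals (n = 4 libraries a group). Every bar crosses 0, and the bars of Tgfb2 (-0.57 to 0.33), Ltbp1 (-0.19 to 0.54) and Tgfb1 (-0.32 to 0.19) are the widest.

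Tgfb3 (ENSMUSG00000021253) was the most abundant ligand transcript in these cells. It measured 26.3, 27.5, 29.6 and 30.3 TPM with dDAVP alone and 29.0, 29.9, 28.0 and 30.6 TPM with tolvaptan, replicates 1 to 4 in each case. The tolvaptan libraries all lay within or just above the range of the controls (28.4 ± 1.83 against 29.4 ± 1.10 TPM, SD, n = 4). The log2 fold change was 0.04 with a standard error of 0.06 (edgeR adjusted p = 0.846).

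Tgfb1 (ENSMUSG00000002603), the ligand most studied in renal fibrosis, was low at 7.62, 6.58, 6.02 and 6.93 TPM with dDAVP alone. With tolvaptan it was 5.51, 6.01, 7.17 and 8.34 TPM, so that the tolvaptan group held both the lowest and the highest of the 8 values. The group means were nearly equal (6.79 ± 0.670 and 6.76 ± 1.26 TPM) and the log2 fold change was -0.06 with a standard error of 0.12 (edgeR adjusted p = 0.885). Tgfb2 (ENSMUSG00000039239), the ligand that depends most on betaglycan, measured 0.85, 1.88, 1.21 and 0.86 TPM with dDAVP alone and 1.14, 1.00, 0.91 and 1.31 TPM with tolvaptan. Its highest value, in dDAVP replicate 2, rested on 92 counts, and over all libraries the gene had 54 to 92 counts. At this depth the log2 fold change of -0.12 had a standard error of 0.21 (edgeR adjusted p = 0.880), the least precise of the set.

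Within the summed TPM of the 3 ligands, Tgfb3 made up 78.0% ± 2.29 with dDAVP alone and 79.0% ± 2.60 with tolvaptan (SD, n = 4). Tgfb1 made up 18.7% ± 2.33 and 18.1% ± 2.60, and Tgfb2 the small rest, 2.26% to 5.23% over the libraries. The ligand make-up therefore overlapped between groups for each ligand, as did the summed ligand level (36.4 ± 1.38 and 37.2 ± 2.07 TPM). The Tgfb3 to Tgfb1 ratio was 4.23 ± 0.604 with dDAVP alone and 4.45 ± 0.783 with tolvaptan.

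**Figure D3:**
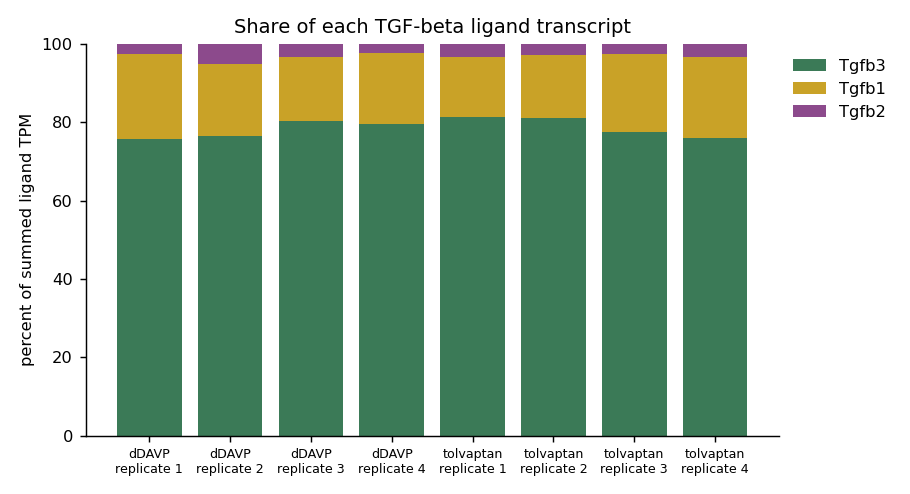
Share of Tgfb3 (green), Tgfb1 (yellow) and Tgfb2 (purple) in the summed ligand TPM, in percent, with 1 bar per library. Tgfb3 takes 75.6% to 81.4% of every bar, and the ranges of the groups overlap. Tolvaptan replicates 1 and 2 (81.4% and 81.0%) lie above the highest dDAVP bar (80.4%).

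Ltbp1 (ENSMUSG00000001870), which binds the latent ligand and anchors it to the matrix, had a direction that depended on the scale. Its TPM was 1.81, 2.63, 2.31 and 2.22 with dDAVP alone and 2.49, 2.60, 1.16 and 2.06 with tolvaptan. Tolvaptan replicate 3 was the lowest of the 8, and the mean TPM was slightly lower with tolvaptan (2.24 ± 0.338 against 2.08 ± 0.655 TPM). On the normalized count scale the order of the means was the opposite: 4.84, 5.26, 5.32 and 4.20 CPM with dDAVP alone against 5.74, 6.41, 3.60 and 6.41 CPM with tolvaptan. There 3 of the 4 tolvaptan libraries were above every control, and tolvaptan replicate 3 was again the lowest. The log2 fold change from counts was 0.17 with a standard error of 0.17 (edgeR adjusted p = 0.757), and without tolvaptan replicate 3 it was 0.34 (adjusted p = 0.262). From log2(TPM + 1), limma gave -0.10.

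The difference between the scales lies in the counts per TPM, which reflect the effective length RSEM assigned to the gene in each library. This measure was taken relative to the gene's geometric mean over the 8 libraries. For Ltbp1 it was 1.08, 0.826, 0.930 and 0.766 with dDAVP alone and 0.970, 1.00, 1.26 and 1.27 with tolvaptan. The means were 0.902 ± 0.140 and 1.13 ± 0.160, and the groups overlapped. Its spread over the libraries, as the SD of log2 values, was larger than that of 97.2% of 12742 genes, whereas for Tgfb3 it was larger than that of 10.8%. Tgfb2 was at 97.5%. The genes ranked were not matched for depth: Ltbp1 had 180 to 305 counts a library and Tgfb2 54 to 92, but Tgfb3 2219 to 2836. The part of depth in this spread was not tested. The longer annotated coding transcripts of Ltbp1 in GENCODE M21 have 6671 and 6235 bases and begin near the upstream start, whose promoter holds TGACGTCA. Those of the downstream start have 5140, 4870 and 3114 bases. Values per isoform were not analysed here, so the use of the starts was not tested.

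**Figure D4:**
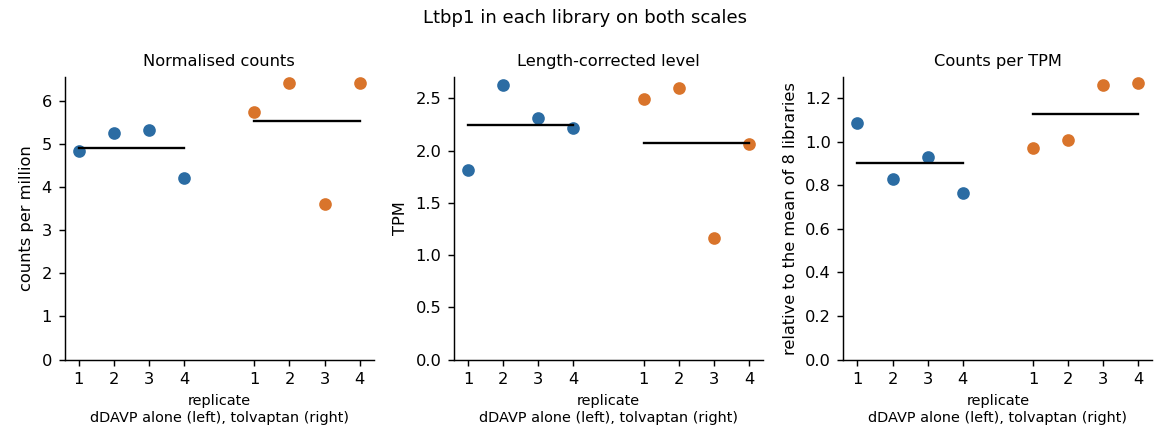
Ltbp1 in each library by replicate, as CPM (left), TPM (middle) and counts per TPM relative to the geometric mean of the 8 libraries (right). Blue is dDAVP alone, orange is tolvaptan, and lines are group means. The tolvaptan mean is above the dDAVP mean in the left and right panels and below it in the middle panel, and replicate 3 is the lowest orange point in the first 2.

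Ltbp1 was also a minor member of its own family, at 1.81% ± 0.238 of the summed TPM of Ltbp1, Ltbp2, Ltbp3 and Ltbp4 with dDAVP alone and 1.59% ± 0.530 with tolvaptan. Ltbp3, which likewise binds latent TGF-beta, made up 70.9% ± 1.55 and 72.2% ± 1.87. Ltbp3 stood at 87.8 ± 6.33 TPM with dDAVP alone and 94.8 ± 10.8 TPM with tolvaptan, a log2 fold change of 0.06 (edgeR adjusted p = 0.784).

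Of the receptors, Tgfbr2 (ENSMUSG00000032440), the type II kinase that binds free ligand, measured 40.7, 45.0, 41.9 and 43.3 TPM with dDAVP alone and 46.5, 43.6, 38.5 and 41.9 TPM with tolvaptan. The tolvaptan libraries spread to both sides of the controls, and the means of 42.7 ± 1.84 and 42.6 ± 3.34 TPM differed by less than either SD. The log2 fold change was 0.03 with a standard error of 0.06 (edgeR adjusted p = 0.899).

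Tgfbr1 (ENSMUSG00000007613), the type I kinase that phosphorylates Smad2 and Smad3, was at 24.9, 25.0, 24.7 and 23.4 TPM with dDAVP alone. With tolvaptan it was 29.7, 23.4, 23.7 and 24.6 TPM, so that replicate 1 stood above all other libraries and the other 3 lay within the control range. The log2 fold change of 0.04 (standard error 0.07, edgeR adjusted p = 0.903) became -0.05 when tolvaptan replicate 1 was left out. That library was also the shallowest of the 8 and the one that correlated least with the rest (mean r of log2 CPM 0.990, the others 0.992 to 0.993); the part of this in its Tgfbr1 value was not tested.

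Tgfbr3 (ENSMUSG00000029287), or betaglycan, a co-receptor without kinase activity that binds all 3 ligands, measured 40.8, 47.2, 44.3 and 47.1 TPM with dDAVP alone and 46.7, 43.3, 42.7 and 38.1 TPM with tolvaptan. Tolvaptan replicate 4 was the lowest, yet 3 of the 4 tolvaptan values were above the lowest control. The log2 fold change was -0.07 with a standard error of 0.06 (edgeR adjusted p = 0.749). The ratios between receptor transcripts overlapped between groups: Tgfbr2 to Tgfbr1 was 1.75 ± 0.0971 with dDAVP alone and 1.69 ± 0.128 with tolvaptan, and Tgfbr3 to Tgfbr2 was 1.05 ± 0.0357 and 1.00 ± 0.0816.

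Smad2 (ENSMUSG00000024563), one of the 2 receptor-regulated Smads of the TGF-beta branch, had the smallest p of the 10 genes. It measured 72.4, 69.1, 72.9 and 74.7 TPM with dDAVP alone and 77.7, 80.2, 76.0 and 73.0 TPM with tolvaptan. In 3 of the 4 tolvaptan libraries Smad2 was above every control, while replicate 4 lay inside the control range. The means were 72.3 ± 2.33 and 76.7 ± 3.02 TPM, and the log2 fold change was 0.10 with a standard error of 0.05 and a 95% interval from -0.0049 to 0.21 (edgeR adjusted p = 0.471). Its estimate stayed between 0.08 and 0.12 over all 17 alternatives, with adjusted p from 0.346 to 0.701. The unadjusted edgeR p of Smad2 went under 0.05 with a maximum TPM above 10 (0.0383). It did so too without dDAVP replicate 4 (0.0452) and without tolvaptan replicate 4 (0.04999), but under no other alternative.

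Smad3 (ENSMUSG00000032402), which binds DNA directly and mediates much of the fibrotic response, was at 23.4, 24.7, 20.5 and 26.0 TPM with dDAVP alone and 27.8, 26.0, 23.0 and 23.9 TPM with tolvaptan. The groups overlapped broadly. Its log2 fold change equalled that of Smad2 to 2 decimals, 0.10, with a wider standard error of 0.07 (edgeR adjusted p = 0.680). Smad2 transcripts outnumbered those of Smad3 by 3.08 ± 0.342 to 1 with dDAVP alone and by 3.06 ± 0.207 to 1 with tolvaptan.

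Smad4 (ENSMUSG00000024515), the partner shared with the bone morphogenetic protein (BMP) and activin branches, measured 116.9, 120.8, 119.4 and 128.3 TPM with dDAVP alone and 134.5, 132.0, 125.0 and 122.3 TPM with tolvaptan. Tolvaptan replicates 1 and 2 were above all controls on this scale, and the means were 121 ± 4.93 and 128 ± 5.72 TPM. The count-based log2 fold change was 0.03 with a standard error of 0.05 (edgeR adjusted p = 0.874). Smad4 stood in a steady ratio to the sum of Smad2 and Smad3, 1.27 ± 0.0304 with dDAVP alone and 1.26 ± 0.0130 with tolvaptan.

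Over the set, 7 of 10 log2 fold changes were above 0, against 48.3% of all genes, and their median was 0.03 against -0.0048 for all genes tested. The values above 0 included all 3 Smads, and those below 0 were Tgfb1, Tgfb2 and Tgfbr3.

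The surrounding pathway was described through lists written from background knowledge but with earlier results of these data known, and read from the same fit, so that their counts are descriptions. For every list below, the shares over all genes were 0.399% called, 11.2% with an unadjusted p under 0.05 and 48.3% above 0. At 0.399%, a count of 0 called sets no list of this size apart from other genes. Outside the response genes, neither DESeq2 nor limma on log2(TPM + 1) called any gene of these lists. Of the proteins that hold or release latent TGF-beta, 13 of 16 were tested and none passed the test in either direction or had an unadjusted p under 0.05 (median log2 fold change 0.01, 7 above 0). Several integrin transcripts were far more abundant than the ligands: Itgb1, the common beta subunit, was at 486 ± 12.4 and 481 ± 13.9 TPM, Itgb5 at 405 ± 29.6 and 414 ± 34.3 TPM, and their partner Itgav at 57.6 ± 3.20 and 56.2 ± 1.09 TPM. Mmp14, a membrane protease, was at 294 ± 6.30 and 299 ± 6.51 TPM. Thbs1, thrombospondin, which can activate latent ligand, was at 210 ± 8.05 with dDAVP alone and 190 ± 20.6 TPM with tolvaptan, a log2 fold change of -0.15 (edgeR adjusted p = 0.463).

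Among co-receptors and receptor adaptors 9 of 12 were tested and none passed the test, 1 having an unadjusted p under 0.05 (median 0.04, 7 above 0). Hspa5, an endoplasmic reticulum chaperone, was lower in every tolvaptan library than in any control (1055 ± 45.7 and 954 ± 43.0 TPM, log2 fold change -0.15) but its adjusted p was 0.244 in edgeR. Fkbp1a, which binds the type I receptor, was at 377 ± 10.7 and 373 ± 15.7 TPM, and the adaptors Strap, Eif3i, Tgfbrap1 and Zfyve9 had log2 fold changes of 0.00, 0.02, 0.08 and 0.16.

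Of the Smad partners and negative regulators 17 of 18 were tested, and again none passed the test, 3 having an unadjusted p under 0.05 (median 0.03, 9 above 0). Tgif1, a co-repressor of Smads, was at 90.9 ± 3.42 with dDAVP alone and 83.3 ± 2.79 TPM with tolvaptan without overlap (log2 fold change -0.17, edgeR adjusted p = 0.334). The inhibitory Smad6 had a log2 fold change of -0.20 (adjusted p = 0.367) and the deubiquitinase Usp9x, which acts on Smad4, one of 0.29 (adjusted p = 0.324), both with overlapping groups. In the edgeR fit without the count filter, Usp9x (adjusted p = 0.00945) and the co-repressor Ski (0.0264) passed. That fit did not use each gene's own spread over its libraries, so a small p can stand beside overlapping groups. In the main edgeR fit Ski, named after its values were seen, had a log2 fold change of 0.27 (adjusted p = 0.629), with overlapping groups. The phosphatase Ppm1a, the deubiquitinase Usp15 and the ubiquitin ligase Nedd4l were abundant (205, 160 and 125 TPM with dDAVP alone) and had log2 fold changes of -0.03, -0.04 and 0.03.

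In the BMP branch 5 of 7 genes were tested, 2 above 0 with a median of -0.03, and none passed the test or had an unadjusted p under 0.05. Bmpr1a was its leading receptor (81.1 ± 5.46 and 79.2 ± 5.32 TPM), ahead of Acvr1 (4.20 and 4.29 TPM) and Bmpr2 (2.53 and 2.43 TPM). Smad1, a receptor-regulated Smad of that branch, was at 42.3 ± 1.87 and 41.6 ± 1.07 TPM. Smad5 showed the same split between scales as Ltbp1, with 21.3 ± 0.547 and 18.7 ± 2.44 TPM but a count-based log2 fold change of 0.18 (edgeR adjusted p = 0.644). The activin branch gave 8 of 9 tested genes, 5 above 0 with a median of 0.07, and none that passed, 1 having an unadjusted p under 0.05. Its receptors Acvr2a and Acvr2b both had a log2 fold change of 0.08, the inhibin subunit Inha 0.24 (adjusted p = 0.440) and the activin binder Fstl3 -0.18 (adjusted p = 0.476).

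Another list held genes known to respond to TGF-beta. Of 22 listed, 13 were tested, 2 fell and none rose, against 0.217% of all genes that were lower and 0.183% that were higher. An unadjusted p under 0.05 in edgeR was found for 7 of the 13, against 11.2% of all genes. Ccn2 (ENSMUSG00000019997), connective tissue growth factor, fell, by the labels as given, from 205, 218, 214 and 249 TPM with dDAVP alone to 115, 138, 125 and 97.8 TPM with tolvaptan, without overlap. Its log2 fold change was -0.96 with a standard error of 0.09 (edgeR adjusted p = 0.00034). Id2 (ENSMUSG00000020644), an inhibitor of helix-loop-helix factors, fell from 203, 225, 179 and 188 TPM to 147, 161, 160 and 154 TPM, and its log2 fold change was -0.40 (standard error 0.07, adjusted p = 0.0412). The Id2 call was lost in 7 of the 8 fits that left out 1 library, all but that without tolvaptan replicate 1, and also with both limma fits, with a maximum TPM above 10 and with the replicate block, with adjusted p up to 0.155 over all alternatives. Ccn2 kept its call in all 17.

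The remaining response genes lay mostly below 0. The median over the 13 tested was -0.29, with 11 below 0, and 6 of the 13 did not overlap in log2 CPM between groups, against 7.76% of all genes. Cdkn1a, the cell cycle inhibitor p21, was at 410 ± 16.3 and 341 ± 12.5 TPM (log2 fold change -0.29, edgeR adjusted p = 0.0559), and it passed with DESeq2 (adjusted p = 0.000613), with no filter (0.000277) and without tolvaptan replicate 1 (0.0307). Junb, an AP-1 subunit, was at 488 ± 71.8 and 323 ± 104 TPM with overlapping groups (log2 fold change -0.61, edgeR adjusted p = 0.213). It passed with no filter (1.33e-21) and without tolvaptan replicate 2 (0.0184). Since the fit with no filter did not use a gene's own spread, its values for Junb and Cdkn1a carry less weight than the main fit's. DESeq2 also called Id3 (log2 fold change -0.47, adjusted p = 0.00167) and the transcription factor Bhlhe40 (-0.32, adjusted p = 0.0106), both named after their values were seen. The main edgeR fit gave adjusted p of 0.0879 and 0.118. With no filter edgeR called both (0.000138 and 0.000162), and without tolvaptan replicate 1 it called Id3 (0.0462). Id1, picked out after its values were seen, went the other way from its relatives, at 12.3 ± 0.363 with dDAVP alone and 15.4 ± 0.449 TPM with tolvaptan without overlap (log2 fold change 0.29, adjusted p = 0.262). As background, Ccn2, Junb and Cdkn1a respond to many signals besides TGF-beta. In epithelial cells TGF-beta is known to lower Id2 rather than raise it. The list thus mixes directions of response, so its median and its count below 0 give no direction of pathway activity. The other 9 listed genes, among them Col1a1, Acta2, Vim, Snai1 and Zeb1, did not reach the count filter.

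**Figure D5:**
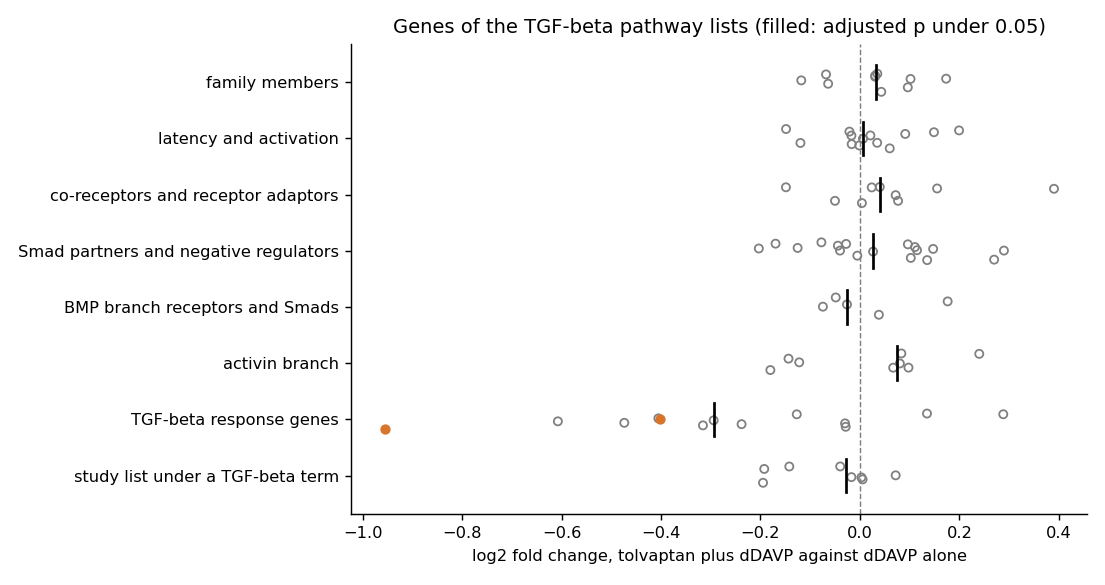
Log2 fold change, tolvaptan plus dDAVP against dDAVP alone, for each tested gene of the TGF-beta lists; points are genes, vertical lines are list medians, and filled points passed an adjusted p of 0.05 in edgeR. The 2 filled points, Ccn2 at -0.96 and Id2 at -0.40, are both in the response list, whose median is -0.29, while the other medians lie between -0.03 and 0.07.

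The 8 genes that the study's text placed under a TGF-beta response term were taken as a further list, which is not independent evidence because the study selected it from its own samples. All 8 were tested and none passed the test, 1 having an unadjusted p under 0.05 (median -0.03, 3 above 0). Jun was at 73.4 ± 8.73 and 71.6 ± 28.0 TPM and Scx, a tendon transcription factor, at 117 ± 6.82 and 108 ± 12.5 TPM. The integrin subunit Itgb6, which pairs with Itgav to activate latent TGF-beta, was at 42.1 ± 1.11 and 40.6 ± 5.92 TPM. Log2 fold changes ranged from -0.19 for Rasl11b and Nrep, over -0.14 for Scx, -0.04 for Jun, -0.02 for Itgb6, 0.00 for Dbn1 and 0.01 for Wnt7a, to 0.07 for Tgfbr3l.

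Depth ran from 46189118 to 56203831 expected counts per library with dDAVP alone and from 41179670 to 49720488 with tolvaptan. Markers of principal cells, the type this line stands for, were present: 10 of 12 were tested and Aqp2 (8947 and 9439 TPM), Fxyd4 and Avpr2 were the most abundant, with Elf5 and Kcnj1 under the filter. The summed principal cell level was 9037 to 11282 TPM with dDAVP alone and 9443 to 11944 TPM with tolvaptan. Intercalated cell markers summed to 13.7 to 14.5 and 12.0 to 16.9 TPM, nearly all from Dmrt2 and Aqp6, with Slc4a1 near 0. Fibroblast and mural markers, led by Pdgfra, Col1a1 and Acta2, summed to at most 0.76 TPM and endothelial markers, led by Pecam1, Flt1 and Cdh5, to at most 0.52 TPM. Proximal tubule markers, of which Lrp2 made up nearly all and Slc34a1 and Slc5a2 were near 0, summed to 8.59 to 10.1 and 8.94 to 11.7 TPM. Macrophage and leukocyte markers summed to 13.9 to 15.9 TPM with dDAVP alone and 15.9 to 17.4 TPM with tolvaptan, of which Csf1r (9.57 and 9.92 TPM) and Cd68 (4.91 and 6.46 TPM) made up most, while Ptprc was at 0.152 and 0.168 TPM and Adgre1, Lyz2 and C1qa near 0. The part of this last difference in the results above was not tested.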

How the data were processed

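RNA of mpkCCD cells, 4 libraries with dDAVP alone and 4 with tolvaptan plus dDAVP, was made into cDNA with a SMARTer kit and into libraries with a Nextera XT kit, which does not mark strand. Groups and replicate numbers came from the sample titles. The authors aligned reads with STAR and quantified genes with RSEM (versions not given in the sources used here) on Ensembl annotation, and deposited the expected counts as RSEM gave them, with no scaling between libraries. A table of TPM was deposited as well, scaled by the authors for effective length and to the same total in every library. Their deposited tables of DESeq2 results (fold changes and p-values) and of term enrichment were not used. Of 55414 genes, 1399 had no symbol.

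After rounding, genes counted at least 10 times in 4 or more libraries (14772) were compared by edgeR 4.0.16 under R 4.3.3, by its two-sided quasi-likelihood test with TMM factors and no covariate. Benjamini-Hochberg adjustment ran over all of them, and 0.05 was the threshold. DESeq2, the tool of the study, was an alternative (1.42.0). The script was tested on simulated data with 50 changed genes per fold. Its edgeR fit called 52% of them at 1.25-fold, 64% at 1.5-fold, 82% at 2-fold and 90% at 3-fold. Of its calls, 10% were unchanged genes. CPM values use TMM-scaled library sizes. Counts per TPM were divided by the gene's geometric mean over the 8 libraries and then by each library's median of these ratios. Each pair of libraries differed by more than sampling noise (chi-square per degree of freedom at least 8.08).

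The 10 genes and the lists were chosen with earlier results of these data known. Named were all 10 genes; of each pathway list every called gene, the 4 with the highest mean TPM and the 3 with the smallest p; all genes of the study's list; and the 3 most abundant of each marker list. Exceptions are stated. The alternatives were RLE and upper-quartile factors, DESeq2, limma 3.58.1 on log2(TPM + 1) and log2(TPM + 0.1), a maximum TPM above 10 on top of the count filter, filterByExpr, no filter, a replicate block, and fits that omitted 1 library in turn. With no filter the edgeR fit did not use each gene's own spread, so its calls rest on a spread pooled over genes.

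Promoters came from RefSeq (GRCm38.p6) and transcript lengths from GENCODE M21 (GRCm38), an annotation other than the study's. There, exons of Tgfb2, Tgfb3 and Tgfbr3 overlap a gene of other name. Without strand, reads of antisense partners cannot be told apart, but those genes summed to 1.0 count over the 8 libraries for Gm29491 at Tgfb2 and 9.1 and 1.02 for Gm37804 and Gm48008 at Tgfb3. The same-strand Gm43422 at Tgfbr3 summed to 148.6 counts, against 58230 for Tgfbr3.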

Additional observations from a re-analysis of the deposited data

Results flagged for a closer look

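Values of each group of 4 libraries were searched for 1 library far from the other 3, by Dixon's ratio of gap to range. Of 140 groups examined 5 were picked out, and chance alone picks about 1 in 20. None of the 20 groups of TPM of the 10 TGF-beta genes was among them. Tgfb2 counts per TPM, which reflect the effective length given to the gene, stood at 1.37 in tolvaptan replicate 3, with the nearest library at 0.928. The receptor adaptor Zfyve9 was at 2.38 TPM in tolvaptan replicate 1 against 2.03 TPM in the nearest library. The activin receptor Acvr2a was at 91.3 TPM in the same library, against 74.8 TPM. The phosphatase Ppm1a was at 219 TPM (218.99) in dDAVP replicate 2 against 202.27 TPM, and the co-repressor Tgif1 at 87.5 TPM (87.48) in tolvaptan replicate 2 against 82.3 TPM.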

How the results depend on the processing

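None of the 10 TGF-beta genes passed the threshold under any of the 17 alternatives that tested it. The lowest adjusted p was 0.262 (Ltbp1 without tolvaptan replicate 3). In that fit the unadjusted edgeR p of Ltbp1 was 0.0146, and that of Smad2 went under 0.05 in some alternatives. The setting with a maximum TPM above 10 tested 7 of the 10, without Tgfb1, Tgfb2 and Ltbp1. Tgfb3, Tgfbr3, Smad2 and Smad3 had the same sign throughout, and in 10 of 167 values the sign turned, in the other 6 genes. With limma on log2(TPM + 1) and log2(TPM + 0.1), Ltbp1 went to -0.10 and -0.15 and Tgfbr2 to -0.0063 and -0.0065. When libraries were left out in turn, the log2 fold change ranged from -0.16 to 0.0086 for Tgfb1, -0.25 to 0.0097 for Tgfb2, 0.09 to 0.34 for Ltbp1, 0.010 to 0.084 for Tgfb3, -0.12 to -0.019 for Tgfbr3, 0.041 to 0.15 for Smad3, -0.050 to 0.079 for Tgfbr1, -0.018 to 0.083 for Tgfbr2 and -0.017 to 0.063 for Smad4. The pathway genes that passed numbered 2 (Ccn2 and Id2), and 5 with DESeq2, 1 with either limma fit, 8 with no filter, 1 with a maximum TPM above 10, 1 with the replicate block and 1 to 4 when libraries were left out. Over all genes 59 passed (32 lower), and 337 with DESeq2 (138 lower), 22 and 28 with limma at pseudocounts of 1 and 0.1 (19 and 20 lower), 256 of 38115 with no filter (128 lower), 17 with the replicate block (14 lower) and 20 to 82 when libraries were left out. The fewest, 20, came without dDAVP replicate 2, and the most, 82, without tolvaptan replicate 1. The cause of these differences was not tested. Same-numbered libraries had correlations of -0.01, 0.03, 0.16 and -0.01 in their deviations from the group means. Differently numbered libraries had correlations from -0.13 to 0.07. With 4 libraries a group, these values cannot settle whether replicate numbers pair the libraries. Counts were lowest for Tgfb2, at 54 to 92 a library. For Ltbp1, at 180 to 305, the standard error went from 0.17 to 0.12 without tolvaptan replicate 3.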
